A study of Mus musculus with 8 samples.

Results

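The genes described here encode the subunits of AMP-activated protein kinase (AMPK), namely Prkaa1, Prkaa2, Prkab1, Prkab2, Prkag1, Prkag2 and Prkag3, together with Stk11, which encodes the upstream kinase LKB1. They were chosen by name and make up 8 of the 24054 genes in the deposited table, and all 8 have a row. They were measured by RNA-seq in soleus (SOL), a postural muscle of the lower leg, from 4 MI4KO mice and 4 flox mice, with 1 library per mouse. MI4KO mice carried floxed alleles of the transcription factor Irf4 and Cre expressed from the Myl1 locus, which removes Irf4 in skeletal muscle fibers and leaves it in the other cell types of the muscle, and flox mice carried the floxed alleles without Cre. All animals were labelled as male C57BL/6 mice on a high fat diet, and their age is not given in the labels. The paper describes its MI4KO mice on chow and leaves the diet of the sequenced animals unnamed, so the labelled diet rests on the labels alone. Within a group, mice 1 to 4 follow their labelled animal numbers from low to high.

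AMPK is a trimer of a catalytic alpha subunit, a scaffolding beta subunit that carries a glycogen-binding module, and a gamma subunit that binds adenine nucleotides. It is switched on when AMP and ADP accumulate and LKB1 phosphorylates the activation loop of the alpha subunit, and it then favours ATP-producing routes such as glucose uptake and fatty acid oxidation over ATP-consuming synthesis. Each subunit has paralogs, so muscle can hold several trimers, and the trimer with alpha2, beta2 and gamma3 is known for its activation during contraction of glycolytic fibers.

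The promoters of the beta paralogs are shown because Prkab1 was the member with the largest difference between the groups and Prkab2 its more abundant partner. The stretches are the RefSeq (GRCm38.p6) windows of 250 bases upstream of the RefSeq start, trimmed to 170 bases for Prkab1 and 231 for Prkab2 so that they end before the GENCODE start. They are read 5′ to 3′ on the strand of the gene and given in lower case with GC boxes (GGGCGG or its complement CCGCCC) in capitals. The Prkab1 stretch is chr5:116024509-116024678 on the minus strand and the Prkab2 stretch is chr3:97657962-97658192 on the plus strand.
Prkab1: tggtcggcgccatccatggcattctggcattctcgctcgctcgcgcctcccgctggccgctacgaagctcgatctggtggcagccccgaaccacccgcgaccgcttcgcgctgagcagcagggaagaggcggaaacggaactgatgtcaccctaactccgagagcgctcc
Prkab2: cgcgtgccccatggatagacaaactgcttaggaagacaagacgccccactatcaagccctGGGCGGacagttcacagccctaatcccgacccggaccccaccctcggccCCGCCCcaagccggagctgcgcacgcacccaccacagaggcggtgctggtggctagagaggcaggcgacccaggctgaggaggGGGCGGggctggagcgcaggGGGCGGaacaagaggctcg

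All 8 genes matched the promoter table, with 10 promoters because Prkag2 has 3. Searched on both strands over the 250 bases upstream of each RefSeq start, the GC box was present in 6 of the 10, belonging to Prkaa1, Prkaa2, Prkab2, Prkag1 and Prkag2, and in 32.7% of 32851 mouse promoters of the same length. The Prkab2 stretch printed above holds 4 GC boxes and the Prkab1 stretch holds 0. The CCAAT box was present in 4 of the 10, belonging to Prkag1, Prkag2 and Stk11, against 33.8% of all promoters. A pair of GAAA cores with 2 bases between them, the spacing of an interferon-stimulated response element and the kind of element IRF proteins bind, was present in 0 of the 10 and in 2.98% of all promoters, and the composite of an ETS core GGAA and, 2 bases on, an IRF core GAAA was present in 0 of the 10 and in 2.3% of all. These counts describe the letters in these windows only.

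The deposited values are TMM-normalized CPM, that is, reads on a gene relative to all reads of its library after a scaling that holds most genes level. Between 13417512 and 16384565 reads per mouse stood behind them, so that 3 reads correspond to a value of 0.181 to 0.225. A pair of libraries stood apart from the others in the genes named next. The summed level of 12 liver markers was 155.7 in flox mouse 1 against 4.46 to 6.68 elsewhere, and Ppp1r3c, which encodes the glycogen-targeting subunit PTG, reached 1128 in MI4KO mouse 3 against 222.4 to 292.6 elsewhere. MI4KO mouse 3 was the highest or lowest of the 8 mice for 6 of the 8 members, and for 44.2% of the 11865 genes tested. Among the other mice this share of genes ran from 15.9% in flox mouse 1 to 31.9% in MI4KO mouse 1. The slow myosin Myh7, which marks slow fibers, was at 11079 to 14577 across the 8 mice. The fast myosin Myh4 varied from 34.5 to 2496 within the flox group itself. Irf4 was at 0.686, 1.46, 1.58 and 1.68 in flox mice 1 to 4 and at 0.725, 0.840, 0.266 and 1.03 in MI4KO mice 1 to 4, with 4 to 23 reads per mouse. The Irf4 log2 fold change was -0.45 (SE 0.20, unadjusted p = 0.0402, adjusted p = 1.0 by limma), and flox mouse 1 lay within the range of the MI4KO mice. On whole reads the Irf4 estimate was -0.86 with edgeR (unadjusted p = 0.0562) and -0.87 with DESeq2 (unadjusted p = 0.0583), without MI4KO mouse 3 it was -0.31 by limma (unadjusted p = 0.119), and with the mouse-number range as a covariate it was -0.41 (unadjusted p = 0.0706).

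To ask whether AMPK transcripts differed when Irf4 was deleted, MI4KO and flox mice were compared with limma on log2(value + 1). Genes had to reach a value of 1 in 4 or more mice, which 11865 genes did. All 8 members passed this filter, and 0 of the 8 met the limits of an unadjusted p under 0.05 together with 1.5-fold or more. Over all genes tested, 26 met these limits, or 0.219% (0.059% higher and 0.16% lower in MI4KO mice), and 0 had a Benjamini-Hochberg adjusted p under 0.05, or 0% (399 genes, or 3.36%, had an unadjusted p under 0.05). Of the members, Prkab1 alone had an unadjusted p under 0.05, being lower in MI4KO mice, as were 2.95% of all genes tested. The log2 fold change was below 0 for 5 members and above 0 for 3, with a median of -0.03 beside -0.01 over all genes tested. For 7 of the 8 members, Prkab1 being the exception, the 95% interval of the fold change lay inside 1.5-fold in both directions. For Prkag2 this was narrow and did not hold in every setting. The lower end of its log2 interval passed 1.5-fold at -0.625 without MI4KO mouse 3 and at -0.628 without flox mouse 4. Because RNA came from whole muscle, fewer cells of a type and less RNA per cell cannot be told apart, and because the labels name separate mice, p-values measure the spread between animals.

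**Figure D1:**
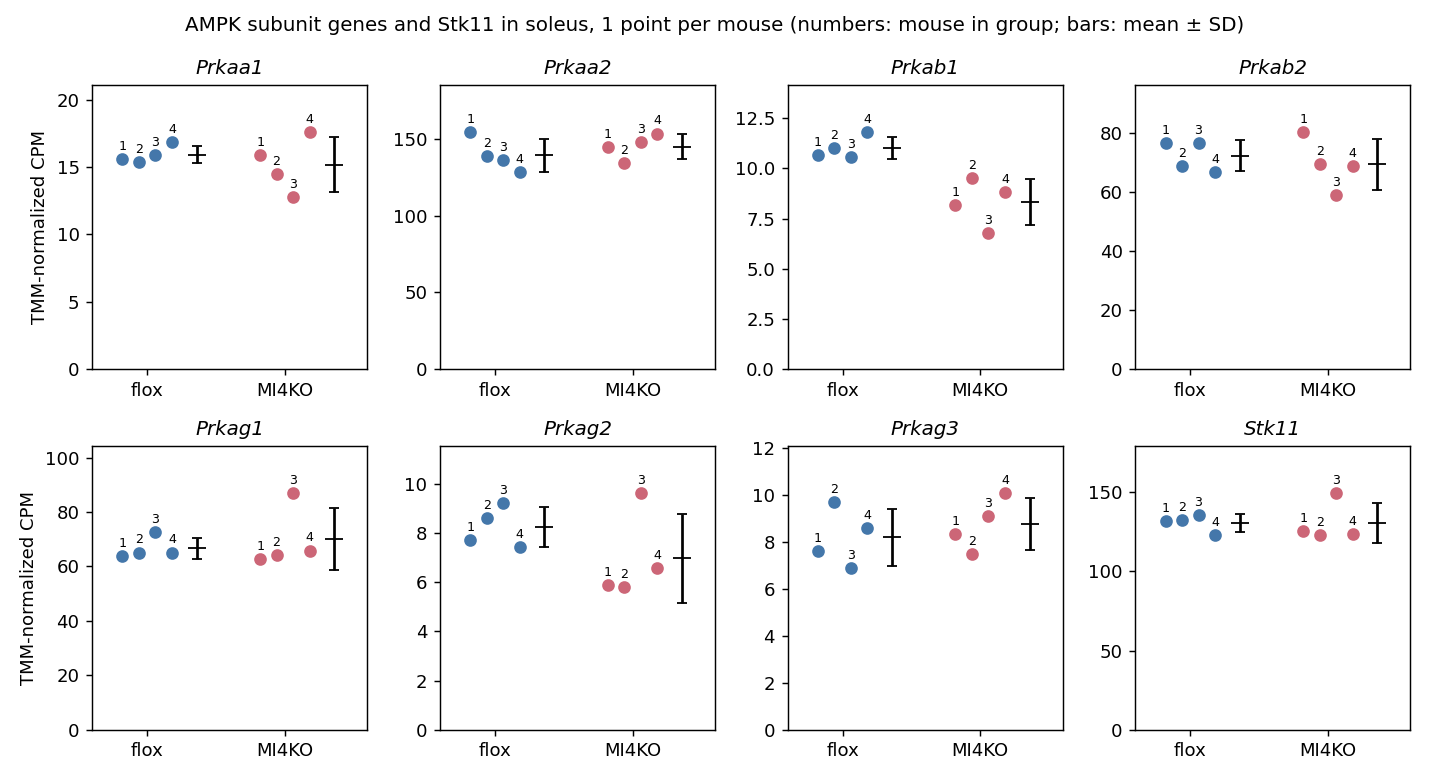
Deposited value (TMM-normalized CPM, vertical axes, each from 0) of the 8 genes in the 4 flox and 4 MI4KO mice, with a numbered point per mouse and, beside each group, a bar for the mean ± SD. Prkab1 is the gene whose groups do not overlap, from 10.6 to 11.8 in flox and from 6.78 to 9.50 in MI4KO mice.

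Per kilobase of the longest GENCODE transcript, the levels of the members covered a wide range. Averaged over the 8 mice, the value per kb was 50.9 for Stk11 (range 47.8 to 58.3) and 41.4 for Prkag1 (38.1 to 52.7). Prkaa2 followed at 17.9 per kb (16.1 to 19.4) and Prkab2 at 14.1 per kb (11.8 to 16.0). The lowest values per kb belonged to Prkab1 at 4.63 (3.25 to 5.65), Prkaa1 at 3.34 (2.74 to 3.78), Prkag3 at 3.0 (2.44 to 3.56) and Prkag2 at 2.29 (1.75 to 2.89). The ranges of neighbours in this order overlapped for Stk11 and Prkag1 and for each neighbouring pair among the last 4 genes, whereas Prkag1 and Prkaa2, Prkaa2 and Prkab2 (by 16.1 against 16.0), and Prkab2 and Prkab1 had ranges that did not overlap. Within every mouse, however, Stk11 lay above Prkag1 and Prkab1 above Prkaa1. Prkaa1 and Prkag3, as well as Prkag3 and Prkag2, changed order between mice. Summed by class, the value per kb was 21.2 for the alpha genes, 18.7 for the beta genes and 46.7 for the gamma genes. Each class was thus led by one paralog, Prkaa2, Prkab2 and Prkag1 respectively.

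Of the catalytic subunits, Prkaa2 encodes alpha2, the form that predominates in skeletal muscle, and sits on chromosome 4 (GRCm38) from 105029874 to 105109890 on the minus strand. Its values were 154.4, 138.7, 136.1 and 128.5 in flox mice 1 to 4 and 144.5, 134.3, 148.0 and 153.6 in MI4KO mice 1 to 4. The groups overlapped over most of their range. The means were 139.4 ± 10.9 (SD, n = 4) and 145.1 ± 8.13 (SD, n = 4), and the log2 fold change was 0.06 (SE 0.08, 95% interval -0.10 to 0.22, unadjusted p = 0.450, adjusted p = 1.0 by limma). With 1763 to 2542 reads per mouse, this was the most deeply covered AMPK subunit gene.

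Prkaa1, on chromosome 15 from 5143861 to 5181899 on the plus strand, encodes alpha1, the more widely expressed catalytic form. It was at 15.6, 15.4, 15.9 and 16.8 in flox mice and at 15.9, 14.5, 12.8 and 17.6 in MI4KO mice. The flox mice lay close together, and the MI4KO group held both the lowest and the highest of the 8 values. The log2 fold change of Prkaa1 was -0.07 (SE 0.10, 95% interval -0.29 to 0.15, unadjusted p = 0.481, adjusted p = 1.0 by limma). Per length, Prkaa2 made up 83.6% ± 1.5 (SD, n = 4) of the alpha transcripts in flox and 84.8% ± 1.57 (SD, n = 4) in MI4KO mice, with shares between 81.7% and 87.1% that overlapped between the groups.

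Of the scaffold subunits, Prkab1 encodes beta1 and lies on chromosome 5 from 116013586 to 116024508 on the minus strand. Its values were 10.7, 11, 10.6 and 11.8 in flox mice 1 to 4 and 8.20, 9.50, 6.78 and 8.82 in MI4KO mice 1 to 4. Every MI4KO mouse lay below every flox mouse, which was the case for 1.7% of all genes tested. The means were 11 ± 0.559 (SD, n = 4) and 8.33 ± 1.16 (SD, n = 4), a ratio of MI4KO to flox of 0.756. On the log2 scale the change of Prkab1 was -0.37 (SE 0.11, 95% interval -0.61 to -0.14), short of 1.5-fold, with an unadjusted p of 0.00476 and an adjusted p of 1.0 by limma. Permuting the group labels of the Prkab1 values in full (exact permutation test, two-sided) gave p = 0.0286, the lowest value this design can give. Any gene whose groups do not overlap gets this value, so it restates the separation above.

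The Prkab1 values rest on 171, 159, 141 and 162 reads in flox mice 1 to 4 and on 113, 147, 102 and 146 reads in MI4KO mice 1 to 4, so that counting alone gives an SD of 7.65% to 9.90% per mouse. With edgeR (quasi-likelihood) on whole reads, Prkab1 had a log2 fold change of -0.38 (unadjusted p = 0.0144, adjusted p = 1.0 by edgeR). Leaving out MI4KO mouse 3, which had the lowest value, gave -0.29 (unadjusted p = 0.0124, adjusted p = 0.970 by limma), and leaving out both libraries that stood apart gave -0.30 (unadjusted p = 0.0188, adjusted p = 0.894 by limma). The labelled mouse numbers fall into a pair of ranges, which the labels do not call a batch. Within the lower range, Prkab1 was 10.7 in the flox mouse and 8.20 and 9.50 in the MI4KO mice. Within the higher range it was between 10.6 and 11.8 in 3 flox mice and at 6.78 and 8.82 in the MI4KO mice. Because every MI4KO mouse lay below every flox mouse, the direction had to be the same in both ranges. The split is therefore no test of the mouse-number range.

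Markers of some other cell types were also lower on average in MI4KO mice. Endothelial markers were lower on average in MI4KO mice for 6 of 6 genes, and their sum ranged from 356.5 to 417.8 in flox mice against 269.9 to 387.1 in MI4KO mice. Of these, Kdr (log2 fold change -0.37) and Cdh5 (-0.29) had an unadjusted p under 0.05 and 0 of 6 separated the groups. MI4KO mouse 3 was mixed in these markers. Its endothelial sum was the highest of the MI4KO mice (387.1), and it was the highest of all mice for 3 of the 6 genes. Its Kdr, however, was at 39.8, below the 57.0 to 67.2 of flox mice. Adipocyte markers were lower on average for 6 of 8 genes, with sums of 240.2 to 302.3 in flox mice against 180.6 to 271.1 in MI4KO mice, and Ucp1 was at 0 in some mice. Cfd, the adipocyte gene for complement factor D, was past both limits (log2 fold change -0.65, SE 0.28, unadjusted p = 0.0394, adjusted p = 1.0 by limma), with groups that overlapped. Slow fiber markers were lower on average for 8 of 8 genes, fast fiber markers for 7 of 11 and red blood cell markers for 6 of 7. These counts use means of the deposited values. By log2 fold change, 5 fast fiber markers lay below 0 and 6 above, and the median over all genes tested was -0.01. Macrophage markers were lower on average for 1 of 5 genes and neutrophil markers for 1 of 5. The part of these cell types in the Prkab1 difference was not tested.

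Prkab2 encodes beta2, the form known to predominate in skeletal muscle, and lies on chromosome 3 from 97658193 to 97673812 on the plus strand. It was at 76.5, 68.6, 76.6 and 66.7 in flox mice and at 80.1, 69.5, 58.8 and 68.7 in MI4KO mice. The highest and the lowest of the 8 values were both from MI4KO mice, and the other 6 lay between them. The log2 fold change of Prkab2 was -0.06 (SE 0.09, 95% interval -0.27 to 0.14, unadjusted p = 0.518, adjusted p = 1.0 by limma). Dropping MI4KO mouse 3 moved this estimate to 0.012. The share of Prkab1 in the beta transcripts per length was 25.0%, 27.8%, 24.9% and 29.8% in flox mice 1 to 4 and 19.7%, 24.7%, 21.6% and 23.5% in MI4KO mice 1 to 4. The groups did not overlap in this share, which is built on the same Prkab1 values. The gap between 24.9% and 24.7% was narrow, and counting alone gives Prkab1 an SD of 7.65% to 9.90% per mouse. The mean share was 26.9% ± 2.37 (SD, n = 4) in flox and 22.4% ± 2.19 (SD, n = 4) in MI4KO mice.

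**Figure D2:**
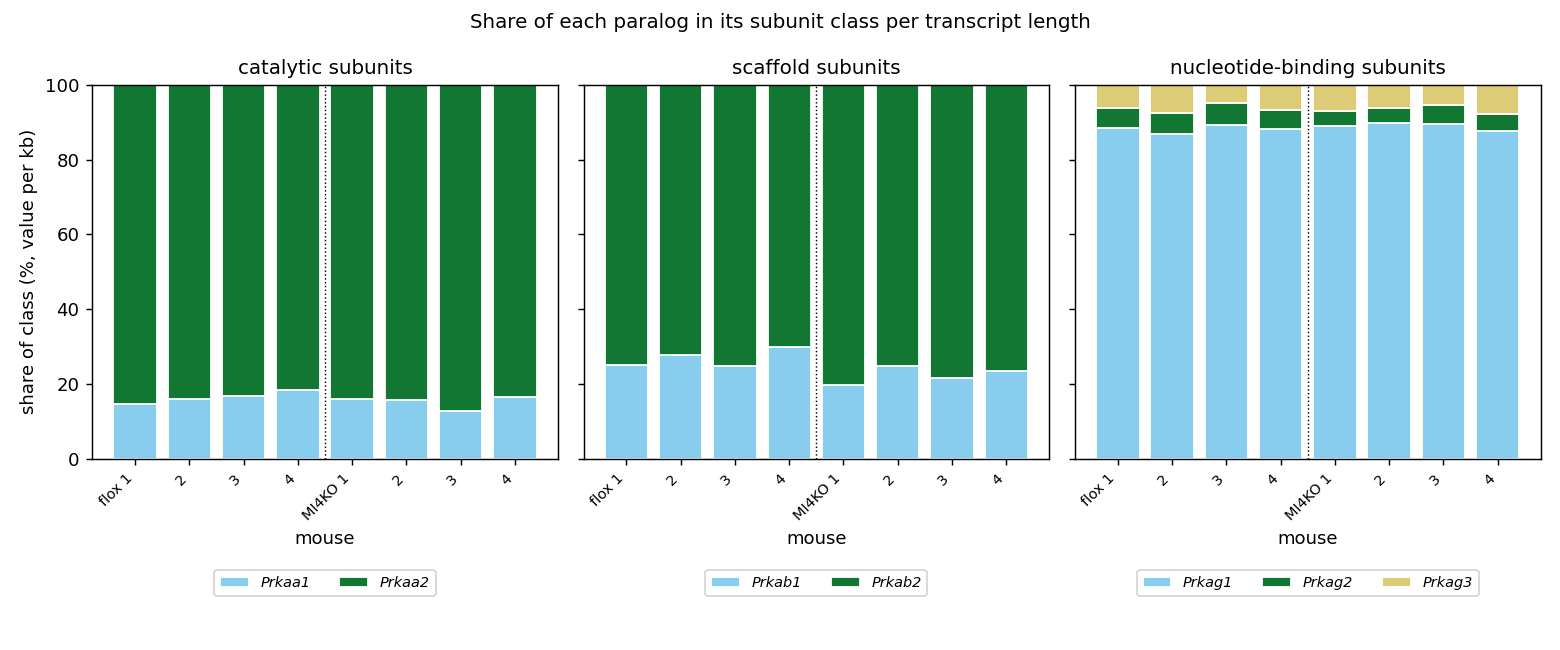
Share of each paralog in its subunit class, in percent of the summed value per kb of transcript (vertical axis), as stacked bars for the 4 flox and 4 MI4KO mice in 3 panels for alpha, beta and gamma genes. Prkaa2, Prkab2 and Prkag1 lead their classes in every mouse, and the Prkab1 share is 24.9% to 29.8% in flox mice against 19.7% to 24.7% in MI4KO mice.

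Of the nucleotide-binding subunits, Prkag1 encodes gamma1, the widely expressed form, and lies on chromosome 15 from 98812797 to 98831521 on the minus strand. It was at 64.0, 65.1, 72.6 and 65.1 in flox mice and at 62.9, 64.2, 87.0 and 65.9 in MI4KO mice. In each group 3 mice lay close together and mouse 3 stood above them. The log2 fold change of Prkag1 was 0.06 (SE 0.10, 95% interval -0.16 to 0.28, unadjusted p = 0.580, adjusted p = 1.0 by limma). Dropping MI4KO mouse 3 moved this estimate to -0.05.

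Prkag2 encodes gamma2, mutated in an inherited heart disease with glycogen storage, and lies on chromosome 5 from 24862744 to 25100642 on the minus strand. Its values were 7.73, 8.60, 9.23 and 7.43 in flox mice and 5.88, 5.82, 9.64 and 6.59 in MI4KO mice, from 81 to 145 reads per mouse. MI4KO mice 1, 2 and 4 lay below all flox mice, and MI4KO mouse 3 was the highest of the 8. The log2 fold change of Prkag2 was -0.23 (SE 0.14, 95% interval -0.55 to 0.08, unadjusted p = 0.131, adjusted p = 1.0 by limma). Leaving out MI4KO mouse 3 gave -0.38 (unadjusted p = 0.00510, adjusted p = 0.970 by limma), so that this library set whether Prkag2 passed an unadjusted p of 0.05. As a share of the gamma transcripts per length, Prkag2 was at 5.30%, 5.68%, 5.64% and 4.99% in flox mice 1 to 4 and at 4.12%, 4.04%, 4.92% and 4.35% in MI4KO mice 1 to 4. The shares did not overlap between the groups although the values of Prkag2 did. In MI4KO mouse 3 both Prkag1 and Prkag2 were at their highest. The gap between the shares, 4.99% against 4.92%, was narrow, and counting alone gives Prkag2 an SD of 8.30% to 11.1% per mouse. Shares were not computed for genes outside the AMPK subunit classes.

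Prkag3 encodes gamma3, found mainly in fast glycolytic muscle, and lies on chromosome 1 from 74738922 to 74749221 on the minus strand, the chromosome that also carries Myl1 (66924295 to 66945404), the gene into which Cre was inserted. Prkag3 was at 7.61, 9.71, 6.90 and 8.60 in flox mice and at 8.34, 7.50, 9.11 and 10.1 in MI4KO mice. The groups overlapped, and the log2 fold change of Prkag3 was 0.09 (SE 0.12, 95% interval -0.18 to 0.35, unadjusted p = 0.493, adjusted p = 1.0 by limma). Myl1, which encodes the fast alkali myosin light chain, was lower in every MI4KO mouse (2203 to 2846) than in every flox mouse (3151 to 3664), with a log2 fold change of -0.41 (SE 0.10, unadjusted p = 0.00135, adjusted p = 1.0 by limma). The fast myosin Myh4 differed widely between mice of 1 group. Its values were 1807, 2496, 34.5 and 35.4 in flox mice and 277.7, 831.2, 55.8 and 2174 in MI4KO mice. The summed level of 11 fast fiber markers varied less, from 53368 to 58461 in flox and from 47104 to 62696 in MI4KO mice. The mice with the highest Prkag3 were MI4KO mouse 4 and flox mouse 2, the highest in Myh4 as well. MI4KO mouse 3, which was low in Myh4, followed. Flox mouse 1, with Myh4 at 1807, had Prkag3 at 7.61, and flox mouse 4, with Myh4 at 35.4, had it at 8.60. Within the gamma class Prkag3 made up 6.36% ± 1.10 (SD, n = 4) per length in flox and 6.58% ± 1.02 (SD, n = 4) in MI4KO mice, and Prkag1 made up 88.2% ± 1.10 (SD, n = 4) and 89.1% ± 0.913 (SD, n = 4).

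Stk11, on chromosome 10 from 80115803 to 80130682 on the plus strand, encodes LKB1, the main upstream kinase of AMPK in muscle. It was at 132.0, 132.1, 135.9 and 122.8 in flox mice and at 125.7, 123.0, 149.5 and 123.5 in MI4KO mice. MI4KO mouse 3 was again the highest, and the other 7 mice lay between 122.8 and 135.9. The means were 130.7 ± 5.59 (SD, n = 4) and 130.4 ± 12.8 (SD, n = 4), and the log2 fold change was -0.0069 (SE 0.08, 95% interval -0.18 to 0.16, unadjusted p = 0.930, adjusted p = 1.0 by limma).

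Several members share their locus with a gene on the opposite strand, namely Gm15938 at Prkaa1, Gm14508 at Prkab1, Gm17651 at Prkab2, B130046B21Rik at Prkag1, Cbarp at Stk11 and 3 genes at Prkag2. The libraries were stranded, but whether the counting used strand is not given in the sources used here. Where exons overlap, reads of a member and of its partner can therefore not be told apart. Sharing was judged on whole gene spans, introns included, and overlap of exons was not examined. Prkag2os1, a partner of Prkag2, had 0 reads in every mouse. In Prkaa2 and Prkag3 the annotation has no overlapping gene.

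**Figure D3:**
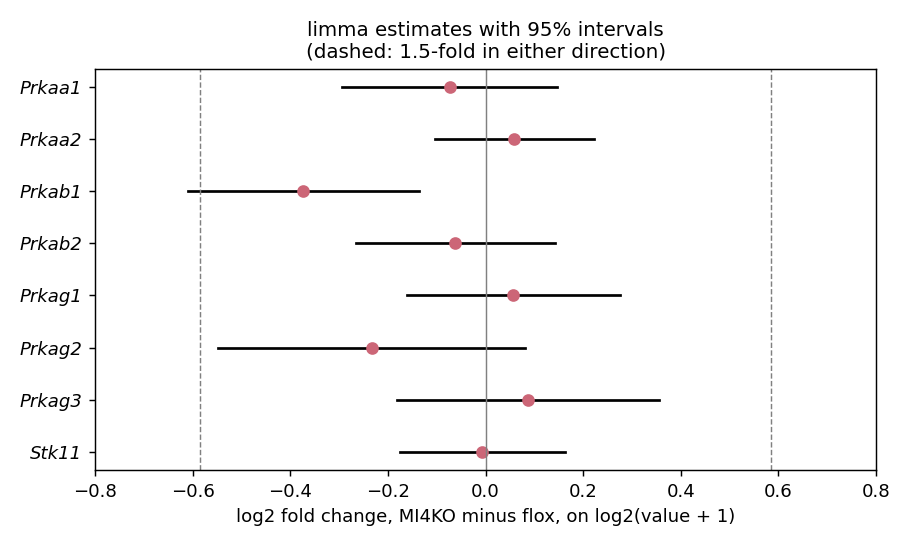
Log2 fold change of MI4KO against flox (horizontal axis) for the 8 genes by limma, with bars for the 95% interval and lines at 1.5-fold in each direction. The Prkab1 interval, from -0.61 to -0.14, lies below 0 and the other 7 include 0.

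The pathway around the kinase was examined with 6 lists of 64 genes, of which 60 passed the filter. Of these, 0 met the limits of the comparison in either direction, 1 had an unadjusted p under 0.05 and 0 had values that separated the groups, as 2.07% of all genes tested did. The log2 fold change was below 0 for 26 and above 0 for 34 of the 60, with a median of 0.01 beside -0.01 over all genes tested.

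Of the partners and alternatives of LKB1, Strada and Stradb encode the pseudokinases and Cab39 and Cab39l the MO25 scaffolds that hold LKB1 in its active form. Strada was at 13.4 ± 1.5 (SD, n = 4) in flox and 12.3 ± 1.74 (SD, n = 4) in MI4KO mice, and Stradb at 113.7 ± 5.65 (SD, n = 4) and 116.4 ± 4.12 (SD, n = 4). Cab39 was at 270.4 ± 13.2 (SD, n = 4) and 296.7 ± 29.5 (SD, n = 4), with a log2 fold change of 0.13 (SE 0.08, unadjusted p = 0.128, adjusted p = 1.0 by limma), the highest of this list. The Cab39 estimate was 0.15 with edgeR (unadjusted p = 0.0416) and 0.07 by limma once MI4KO mouse 3 was left out. Cab39l was at 24.7 ± 0.472 (SD, n = 4) and 24.4 ± 1.29 (SD, n = 4). The calcium-dependent AMPK kinase Camkk2 was at 3.03 ± 0.249 (SD, n = 4) and 2.57 ± 0.455 (SD, n = 4), with 27 to 51 reads per mouse and a log2 fold change of -0.18, the lowest of the list. Camkk1 had 5 to 14 reads per mouse and was not tested. Map3k7, which encodes the kinase TAK1, was at 80.9 ± 2.96 (SD, n = 4) and 81.3 ± 6.30 (SD, n = 4).

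Of the folliculin complex and the sestrins, which report lysosomal and amino acid state to AMPK and mTORC1, 6 of 6 genes were tested and their log2 fold changes lay between -0.18 for Sesn2 and 0.10 for Fnip2 (median 0.05). Of the AMPK-related kinases, most of which LKB1 also phosphorylates, 10 of 13 were tested, with Sik2 lowest at -0.18 and Sik1 highest at 0.28 (median 0.03). Sik1 was at 25.5 to 34.2 in flox mice and at 81.6 in MI4KO mouse 3, with the other MI4KO mice between 24.4 and 36.4. Dropping MI4KO mouse 3 moved the Sik1 estimate to -0.08. Brsk1, Brsk2 and Melk did not pass the filter.

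Of the AMPK substrates, 18 of 18 genes were tested, with a median log2 fold change of 0.01. The lowest was Hdac4, a class IIa histone deacetylase, at -0.15, and the highest was Ppargc1a, the coactivator of mitochondrial genes, at 0.38 (SE 0.32, unadjusted p = 0.255, adjusted p = 1.0 by limma). Ppargc1a ranged from 28.5 to 76.7 in flox and from 35.1 to 101.2 in MI4KO mice, with flox mouse 1 and MI4KO mouse 3 highest in their groups. Without flox mouse 1 it had a log2 fold change of 0.68 (unadjusted p = 0.0287), past both limits, and without MI4KO mouse 3 it had 0.07 (unadjusted p = 0.772). Srebf1, a transcription factor of lipid synthesis, was the gene with an unadjusted p under 0.05, with flox mice at 25.2 to 29.9 and MI4KO mice at 29.0 to 49.6 (log2 fold change 0.31, SE 0.14, unadjusted p = 0.0434, adjusted p = 1.0 by limma). The groups of Srebf1 overlapped and the highest value was that of MI4KO mouse 3, without which the estimate was 0.15 (unadjusted p = 0.107). Its unadjusted p was above 0.05 too with no filter and without flox mouse 2, 3 or 4 or MI4KO mouse 1, while with edgeR it was 0.0215.

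Of the genes for glucose uptake and fatty acid oxidation downstream of AMPK, 10 of 10 were tested (median 0.03), between Cpt1b, the mitochondrial carnitine transferase of muscle, at -0.06 and Pdk4, the kinase that restrains pyruvate dehydrogenase, at 0.16. Pdk4 was at 1603 to 1778 in flox mice against 1562 to 2470 in MI4KO mice, the highest value again from mouse 3. Dropping that mouse moved the Pdk4 estimate to 0.03. Of the AMP and adenylate enzymes, which set the AMP level that gamma subunits sense, 10 of 10 were tested (median -0.05), between the AMP deaminase Ampd2 at -0.22 and the adenosine kinase Adk at 0.05. Ampd2 had 38 to 71 reads per mouse.

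**Figure D4:**
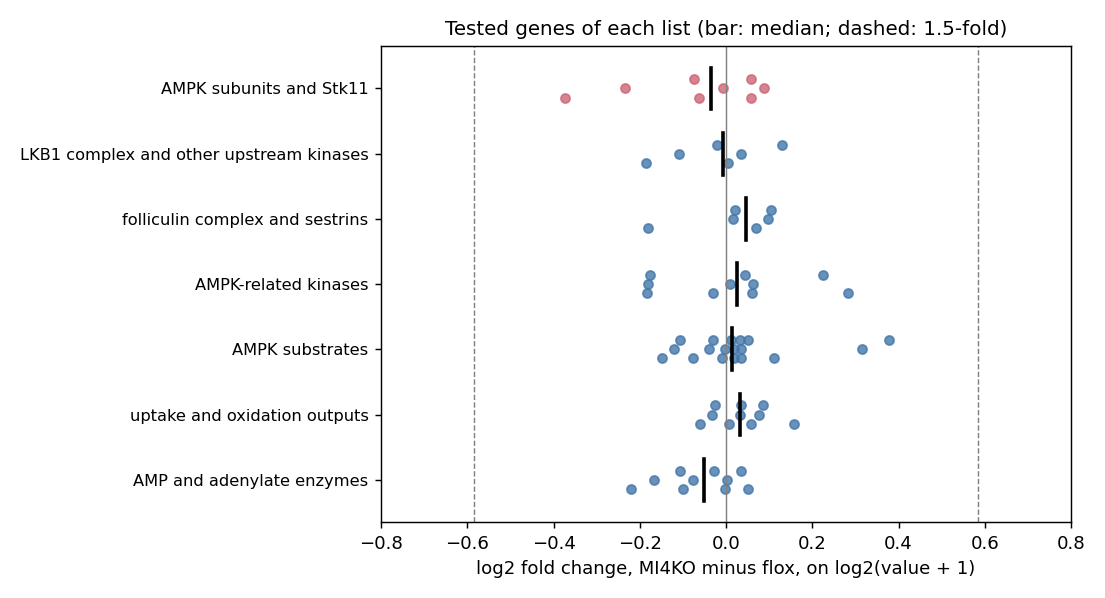
Log2 fold change of MI4KO against flox by limma (horizontal axis) for each tested gene of the 6 pathway lists and for the AMPK genes with Stk11 (top row), with a point per gene, a bar at each list's median and dashed lines at 1.5-fold. List medians lie between -0.05 and 0.05, and single genes reach from -0.37 (Prkab1) to 0.38 (Ppargc1a).

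Across the 16 alternative settings, the log2 fold change of Prkab1 stayed between -0.43 and -0.29 with an unadjusted p under 0.05 in 16 of 16, and its lowest adjusted p was 0.894 by limma. Prkag2 lay between -0.41 and -0.17, with an unadjusted p under 0.05 in 2 of 16, both of them without MI4KO mouse 3. The sign of the log2 fold change turned in at least 1 setting for Prkaa1, Prkab2, Prkag1 and Stk11, each of which was within 0.08 of 0 in the comparison itself.

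**Figure D5:**
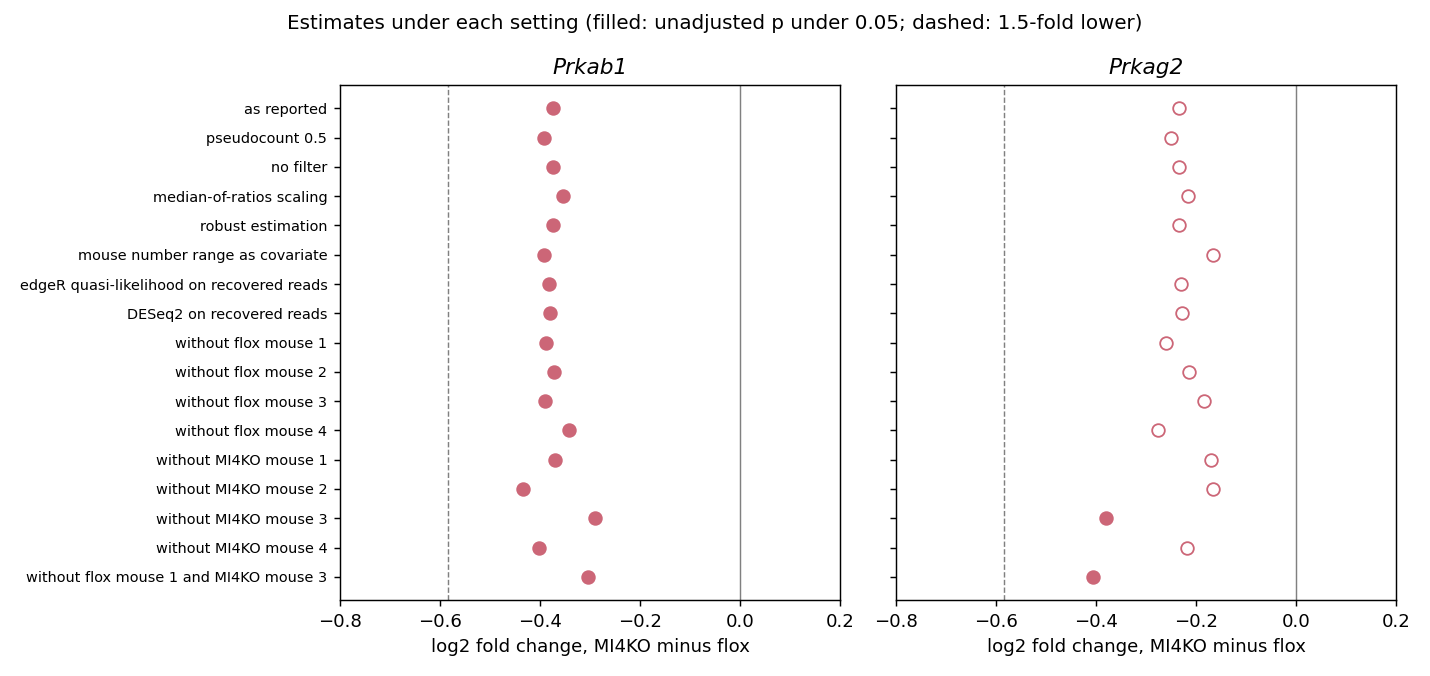
Log2 fold change of MI4KO against flox (horizontal axes) for Prkab1 and Prkag2 under the comparison as reported and the 16 alternative settings (rows), with filled points for an unadjusted p under 0.05 and a dashed line at 1.5-fold lower. Prkab1 stays between -0.43 and -0.29 with every point filled, while Prkag2 has 2 filled points, both without MI4KO mouse 3.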

How the data were processed

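SOL RNA of 4 MI4KO and 4 flox mice was analysed. Per the paper's methods and the labels, the authors prepared stranded mRNA libraries, sequenced single reads of 50 bases, demultiplexed them with bcl2fastq 2.17, aligned them with Bowtie2 2.1.0 to UCSC transcripts (mm10), and estimated expression with RSEM 1.2.15. The signal they deposited for each gene and mouse is CPM after trimmed mean of M-values (TMM) scaling. Each mouse's values are multiples of what 1 read is worth (whole for 100% of non-zero values, tolerance 0.001), which gave back the reads (13417512 to 16384565 per mouse). These depths cover counting error only. The authors' 3 columns of edgeR fold change, p-value and FDR were not used.

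Values were compared with limma 3.58.1 (R 4.3.3, mean-variance trend) on log2(value + 1), which understates the change of low genes, for genes reaching a value of 1 in 4 or more mice, with the limits of the study (unadjusted p under 0.05 and 1.5-fold) and Benjamini-Hochberg adjustment over all genes tested. The script was tested on simulated data. Single values were compared by exact permutation (scipy 1.17.1). Alternatives were a pseudocount of 0.5, no filter, median-of-ratios scaling, the mouse-number range as a covariate, robust estimation, each mouse left out, edgeR 4.0.16 and DESeq2 1.42.0 on recovered reads, shares from the exon union, and, added after seeing the data, both libraries that stood apart left out.

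Named genes are the members, Irf4, all upstream kinases, the highest and lowest gene of each other pathway list, listed genes with an unadjusted p under 0.05 or separate groups, and the 2 genes most like each member. Library markers, Myl1, Ppp1r3c and the myosins were named beside them. The members and lists were chosen with earlier results of these data known, and 1 listed gene is not reported here. Gene symbols were matched to GENCODE M21 (GRCm38) for positions and for the length of the longest transcript.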

Additional observations from a re-analysis of the deposited data

Results flagged for a closer look

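In 62 groups of 4 mice examined (the members, Irf4, the named pathway genes that were tested and 5 of the shares per length), 4 had a highest or lowest mouse whose gap to the nearest other exceeded Dixon's 95% critical share of the group's range, and chance gives about 1 in 20, or 3.1 groups. Prkag1 was at 72.6 in flox mouse 3, a gap of 0.863 of the range. It was at 87.0 in MI4KO mouse 3, a gap of 0.858. Stk11 was at 149.5 in MI4KO mouse 3, a gap of 0.889. Ampd2 was at 4.29 in MI4KO mouse 4, a gap of 0.841. MI4KO mouse 3, the library with the high Ppp1r3c, holds 2 of these 4 values, and the cause was not tested.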

How the results depend on the processing

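The count of genes past both limits was 26 and became 41 with a pseudocount of 0.5, 13 with robust estimation, 65 with edgeR and 51 with DESeq2 (19 higher and 32 lower, against 7 and 19), and leaving out 1 mouse gave 18 to 57 (57 without MI4KO mouse 4). At an adjusted p under 0.05 it was 0 with limma, edgeR (363 genes at an unadjusted p under 0.05) and DESeq2 (248), and 1 without MI4KO mouse 2. The members called stayed 0 and their smallest adjusted p is given with Prkab1. Of the pathway genes 0 to 1 were called when 1 mouse was left out (Ppargc1a, without flox mouse 1). Signs turned for values within 0.08 of 0 and for Sik1, at 0.28, which rests on MI4KO mouse 3. Leaving out 1 mouse gave -0.14 to 0.0013 for Prkaa1, -0.13 to 0.012 for Prkab2, -0.050 to 0.10 for Prkag1, -0.074 to 0.019 for Stk11, -0.052 to 0.0079 for Cab39l, -0.045 to 0.039 for Map3k7 and -0.082 to 0.48 for Sik1. With both doubted libraries out, Prkab2 was at 0.041, Prkag1 at -0.069 and Sik1 at -0.058. Stk11 was at 0.013 with median-of-ratios scaling, 0.0089 with the mouse-number covariate, which put Map3k7 at -0.021 (0.064 with both doubted libraries out), 0.0095 with edgeR and 0.012 with DESeq2. Lengths of the exon union gave gamma shares of 90.1% and 90.8% for Prkag1, 4.71% and 3.80% for Prkag2 and 5.19% and 5.36% for Prkag3 in flox and MI4KO mice. The cause of these shifts was not tested. No paired analysis was possible because the mouse numbers in the labels are not shared between the groups. Depth limits Prkag2, Prkag3 and Prkab1 most, with 81 to 171 reads per mouse.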

Other observations

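The genes whose values followed each member most closely over the 8 mice, on log2(value + 1) among the 11865 genes tested, are given as a description of these libraries, which share MI4KO mouse 3 as a frequent extreme. They were Slc38a10 (Pearson r 0.965) and Kcnj2 (0.960) for Prkaa1, 2310016D03Rik (0.961) and Zadh2 (0.946) for Prkaa2, Tril (0.961) and Arhgap32 (0.951) for Prkab1, and Traf3 (0.978) and Usp47 (0.972) for Prkab2. For the other members they were Tmem143 (0.987) and St7 (0.985) for Prkag1, Wdr48 (0.967) and Acadm (0.962) for Prkag2, Fam13c (0.953) and Elf4 (0.912) for Prkag3, and Wnt4 (0.989) and Maf1 (0.974) for Stk11.

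Other tissue markers were measured in the same libraries. Neutrophil markers summed to 4.25 in MI4KO mouse 3 and to 0.146 to 0.375 in the other mice, with Mpo at 0 in all 8. Macrophage markers had sums of 15.6 to 21.5 in flox mice against 16.2 to 19.5 in MI4KO mice, Schwann cell markers to 98.7 to 134.3 and 91.9 to 111.9, and tendon and fibroblast markers to 190.4 to 244.6 and 192.4 to 243.0. Slow fiber markers were lower on average in MI4KO mice for 8 of 8 genes, with 0 of 8 separating the groups, and their sums were 35118 to 42829 in flox mice against 32602 to 39906 in MI4KO mice. Fast fiber markers summed to 53368 to 58461 and 47104 to 62696, and red blood cell markers to 412.0 to 598.7 and 377.6 to 470.3.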
